A study of Mus musculus with 24 samples.

Results

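The activity-dependent immediate early genes described here are Fos, Fosb, Junb, Egr1, Egr2, Arc, Npas4, Nr4a1, Dusp1 and Ier2. These 10 genes were taken by symbol from the 18820 genes that had a probe set with a single gene symbol in the deposited table, and each had 1 such probe set. Expression was measured with an Affymetrix array in the prefrontal cortex of male mice, all aged 8 weeks and on a C57BL6/J background. The 24 arrays are taken as 1 per mouse, which the labels, calling them replicates, do not state. The 12 MUT mice were heterozygous for the deletion written Df16(A)+/- in the labels, a model of the human 22q11.2 microdeletion, and the 12 WT mice were their wild-type littermates. The deletion is carried by every cell of the MUT mice and no gene of the list lies on the deleted chromosome, mouse chromosome 16. The labels name no handling, stimulation or drug before the tissue was taken, so what the mice did before dissection is not given in the sources used here.

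Immediate early genes are transcribed within minutes of a rise in synaptic activity and calcium entry, from transcription factors such as CREB and SRF that are already present and are activated by phosphorylation. Their transcripts are short-lived, so the RNA level of an animal depends on what its neurons did shortly before death. In the cortex Fos, Arc, Npas4 and Egr1 are widely used as marks of neurons that were recently active. The bulk tissue holds all cell types, and a lower level from fewer cells of a type cannot be told apart from less RNA per cell.

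The stretches directly before the transcription start are shown for 5 of the genes, as a description of sequence. CREB and SRF act through such stretches, and their part in the levels given here was not tested. They are RefSeq sequences of build GRCm38.p6, 250 bases each, ending at the base before the annotated start. Capitals mark TGACG and its reverse complement CGTCA, the core of the cyclic AMP response element bound by CREB, and in Egr2 also the CArG box bound by SRF. Fos lies at chr12:85473640-85473889 on the plus strand, Nr4a1 at chr15:101266596-101266845 on the plus strand and Npas4 at chr19:4989972-4990221 on the minus strand. Dusp1 lies at chr17:26508473-26508722 on the minus strand, and the Egr2 window, before 1 of its 5 listed starts, at chr10:67537619-67537868 on the plus strand.
Fos: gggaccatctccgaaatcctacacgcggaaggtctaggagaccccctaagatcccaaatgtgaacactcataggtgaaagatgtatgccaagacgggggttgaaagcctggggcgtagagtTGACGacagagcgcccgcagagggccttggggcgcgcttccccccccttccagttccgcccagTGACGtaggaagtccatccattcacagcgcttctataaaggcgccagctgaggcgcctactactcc
Nr4a1: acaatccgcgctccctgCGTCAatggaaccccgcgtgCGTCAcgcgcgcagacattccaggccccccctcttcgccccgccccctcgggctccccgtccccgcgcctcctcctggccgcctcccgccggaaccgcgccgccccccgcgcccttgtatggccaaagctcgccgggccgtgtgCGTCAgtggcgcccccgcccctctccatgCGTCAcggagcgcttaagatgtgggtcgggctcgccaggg
Npas4: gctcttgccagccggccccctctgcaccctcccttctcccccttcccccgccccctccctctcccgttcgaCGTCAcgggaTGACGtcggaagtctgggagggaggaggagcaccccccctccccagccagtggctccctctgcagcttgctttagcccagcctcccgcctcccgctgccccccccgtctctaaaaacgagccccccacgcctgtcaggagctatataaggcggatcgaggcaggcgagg
Dusp1: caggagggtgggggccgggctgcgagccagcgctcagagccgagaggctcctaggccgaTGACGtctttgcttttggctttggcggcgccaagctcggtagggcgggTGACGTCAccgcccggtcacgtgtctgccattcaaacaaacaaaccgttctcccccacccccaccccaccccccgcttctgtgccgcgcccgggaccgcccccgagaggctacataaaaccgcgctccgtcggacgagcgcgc
Egr2: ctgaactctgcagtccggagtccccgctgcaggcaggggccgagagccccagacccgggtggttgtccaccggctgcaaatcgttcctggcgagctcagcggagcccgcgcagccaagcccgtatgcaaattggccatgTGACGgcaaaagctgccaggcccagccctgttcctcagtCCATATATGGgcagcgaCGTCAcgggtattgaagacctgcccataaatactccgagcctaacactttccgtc

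Of the 10 genes, 7 had a promoter entry that was used (Fos, Fosb, Junb, Egr2, Npas4, Nr4a1 and Dusp1). Any window of Egr1, which lies on chromosome 18, was left out of the counts for the 10 genes. The 7 genes had 11 windows among them, 5 of which belong to Egr2, 3 of these overlapping each other. TGACG or CGTCA stood in 9 of the 11 windows, and the 2 without it were windows of Egr2. Over all 32851 RefSeq windows of the same length 17.77% held it, on either strand. Fos had the core at positions -129 and -66, counted from the start. It also carried TATAAA, the box that positions the polymerase, at position -33, which was searched on the sense strand only and stood in 7.59% of all windows. Nr4a1 had 4 cores, Npas4 had 2, and Junb and Fosb had 1 each, at positions -106 and -60. Dusp1 alone of these 7 genes held the full element TGACGTCA, found in 1.55% of all windows. Its 2 overlapping cores inside that element are counted beside a further core at position -191. A CArG box stood in the Egr2 window at position -72, and in 1.47% of all windows. GCGGGGGCG, a site bound by the Egr proteins themselves, stood on either strand in the windows of Fosb and Nr4a1 and in 2.57% of all windows. Such a match describes the letters in the window and is not a measurement of binding.

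Values are log2 expression as the authors deposited them after RMA, 1 per gene and mouse, so a difference of 1 is a doubling of signal. The array medians lay between 6.71 and 6.82 and arrays correlated with each other at 0.994 to 0.997. Dgcr8, a gene of the deleted interval that serves to check the labels, averaged 8.26 ± 0.08 in MUT and 8.79 ± 0.05 in WT mice (SD, n = 12 each). Every MUT mouse lay below every WT mouse in it. Markers of the neuron list, which includes Snap25 and Slc17a7, had mean levels of 12.79 to 12.88 in MUT and 12.82 to 12.87 in WT mice, far above the array medians. MUT replicates 5, 9 and 10 had the lowest values on the first principal component of all genes, at -12.5, -19.3 and -11.9. MUT replicate 11 came next, at -8.96. The labels give each array a running number from 1 to 24. They do not say that the number marks an extraction or a scan. The table holds no detection call, so no gene could be called absent.

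Among the AP-1 genes, Fos encodes the founding subunit of the AP-1 transcription factor. Its log2 level had a minimum of 6.41, a median of 7.62 and a maximum of 8.07 in MUT mice, against 7.07, 7.64 and 8.46 in WT mice. The highest mouse of all, WT replicate 3, exceeded the lowest, MUT replicate 1, by 4.14-fold, and the genotypes overlapped over most of that range. Fosb, which encodes a further AP-1 subunit, had a minimum of 8.01, a median of 8.60 and a maximum of 8.86 in MUT mice, against 8.21, 8.61 and 8.90 in WT mice. Junb encodes a DNA-binding partner of the Fos proteins. Its minimum was 7.95, its median 8.58 and its maximum 8.86 in MUT mice, against 7.90, 8.54 and 9.03 in WT mice. The ranges of all 3 AP-1 genes overlapped between genotypes, and MUT replicate 1 was the lowest MUT mouse in each.

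Egr1 and Egr2 encode zinc-finger transcription factors. Egr1 had a minimum of 10.20, a median of 10.70 and a maximum of 10.91 in MUT mice, against 10.62, 10.80 and 11.02 in WT mice. For Egr1, 5 of the 12 MUT mice lay below every WT mouse and none lay above every WT mouse. Egr2 had a minimum of 7.66, a median of 9.02 and a maximum of 9.37 in MUT mice, against 8.57, 9.04 and 9.27 in WT mice. The low end of Egr2 was MUT replicate 1 alone, 0.91 below the next mouse. The SD of the MUT mice was 0.45 with that mouse and 0.20 without it, against 0.23 in WT mice.

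Npas4 encodes a transcription factor that is selective for neurons and responds to calcium entry. Its level had a minimum of 8.40, a median of 9.17 and a maximum of 9.83 in MUT mice, against 8.51, 9.16 and 9.73 in WT mice. Nr4a1, an orphan nuclear receptor, had a minimum of 10.24, a median of 11.04 and a maximum of 11.45 in MUT mice, against 10.57, 11.11 and 11.52 in WT mice. In both genes the ranges overlapped and MUT replicate 1 was the lowest mouse of all.

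Arc encodes a postsynaptic protein that promotes the removal of AMPA receptors from synapses. Its minimum was 9.83, its median 10.71 and its maximum 10.92 in MUT mice, against 10.25, 10.71 and 10.90 in WT mice. Dusp1, a phosphatase that switches off MAP kinases, had a minimum of 10.56, a median of 10.96 and a maximum of 11.39 in MUT mice, against 10.42, 11.04 and 11.66 in WT mice. Ier2 encodes a nuclear protein induced by growth factors. Its probe set was dim, below the array medians, with a minimum of 5.59, a median of 5.91 and a maximum of 6.17 in MUT mice, against 5.74, 5.99 and 6.27 in WT mice. RMA compresses differences of such dim probe sets.

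**Figure D1:**
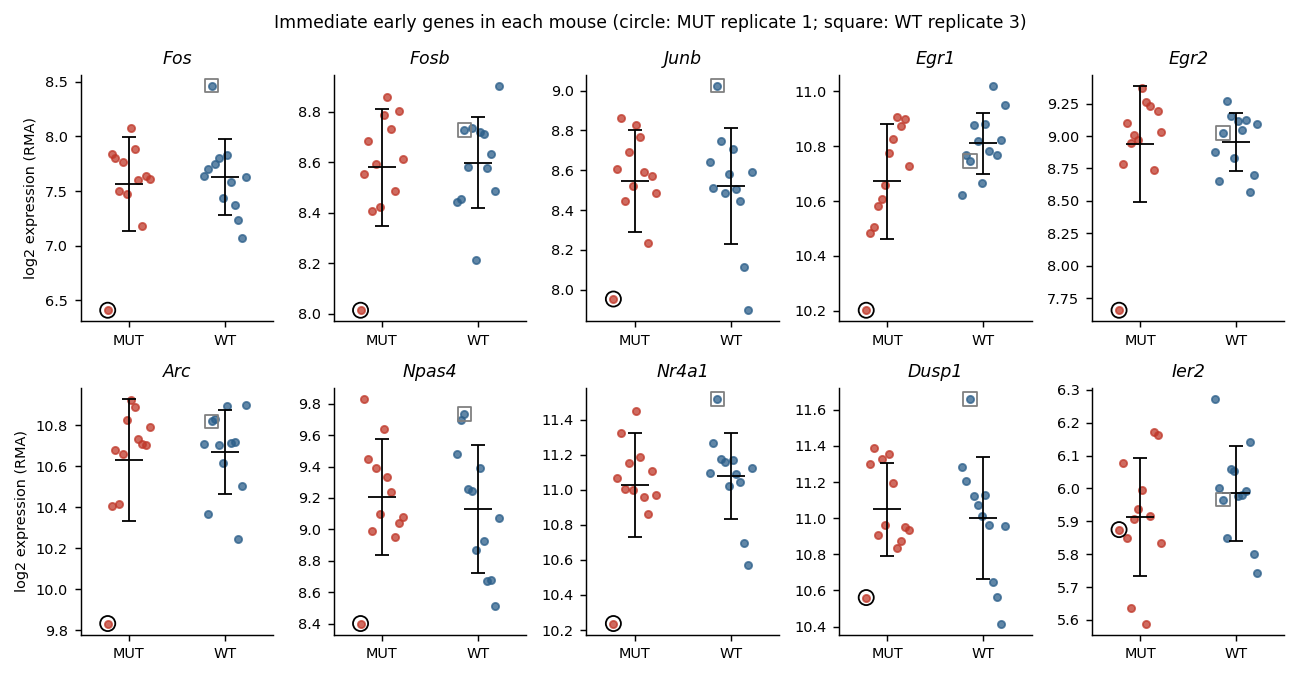
Log2 expression (RMA, vertical axes) of each gene in each of 12 MUT (red) and 12 WT (blue) mice, placed from left to right by replicate number, with the mean and SD as bars. MUT replicate 1 (circle) was the lowest of all 24 mice in 7 genes and WT replicate 3 (square) the highest in 4.

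The same mice stood out across genes, as the plot of levels by mouse shows. MUT replicate 1 was the lowest of all 24 mice in Fos, Fosb, Egr1, Egr2, Arc, Npas4 and Nr4a1, and WT replicate 11 was the lowest in Junb and Dusp1. WT replicate 3 was the highest in Fos, Junb, Nr4a1 and Dusp1. Over all genes MUT replicate 1 was not extreme: its mean correlation with the other arrays was 0.996, the 7th lowest of 24, and it lay at -1.28 on the first principal component. Results are therefore given with and without it. Most of these genes varied between mice of 1 genotype more than other genes did. The SD within genotypes stood at percentile 99.7 of all genes for Fos, 99.6 for Npas4, 99.4 for Egr2, 98.6 for Dusp1, 97.8 for Junb and for Nr4a1 and 96.8 for Arc. Fosb stood at 90.5, Egr1 at 76.6 and Ier2 at 74.4. Against the genes of similar brightness only, Egr1 stood at 99.2 and Ier2 at 59.2. These percentiles include MUT replicate 1, and none was computed without it. With that mouse left out the SD of the MUT mice fell from 0.43 to 0.24 in Fos and from 0.37 to 0.28 in Npas4. It fell from 0.45 to 0.20 in Egr2 and from 0.30 to 0.17 in Arc, and rose from 0.18 to 0.19 in Ier2.

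The levels of single mice show the pattern before any test. MUT replicate 1 had 6.41 in Fos, 7.66 in Egr2, 9.83 in Arc and 10.24 in Nr4a1, where the next lowest MUT mouse in Fos had 7.18. MUT replicate 7 was the highest MUT mouse in Fos (8.07), Egr2 (9.37), Arc (10.92) and Nr4a1 (11.45). WT replicate 11 was the lowest WT mouse in Fos (7.07), Junb (7.90), Npas4 (8.51), Nr4a1 (10.57) and Dusp1 (10.42). In Egr1 that mouse, at 10.82, lay above the WT median of 10.80. WT replicate 3 was the highest WT mouse in the same 5 genes, at 8.46 in Fos and 11.66 in Dusp1, while its Egr1 level of 10.75 lay below that median. WT replicates 11 and 3 thus stood at opposite ends of the WT mice in Fos, Junb, Npas4, Nr4a1 and Dusp1, and not in Egr1.

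Covariation between mice was the first question. With the genotype means removed, Fos and Nr4a1 moved together most closely. Their Pearson r over 24 mice was 0.95 and their Spearman rho 0.89 (permutation p = 1e-05 for each, the smallest that 100000 resamples can give). The correlation was 0.96 in MUT and 0.92 in WT mice, 0.96 in array numbers 1 to 12 and 0.88 in array numbers 13 to 24. It was 0.90 without the 2 mice farthest from the median in Fos, so it did not rest on MUT replicate 1 or WT replicate 3. Fos and Junb gave r = 0.91 and rho = 0.84 (permutation p = 1e-05 for each), and r = 0.95 in MUT and 0.89 in WT mice. Their r was 0.93 in array numbers 1 to 12, 0.92 in 13 to 24 and 0.88 without the 2 farthest mice. These 2 pairs are among 45 pairs of the 10 genes that were computed.

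Npas4 and Dusp1 joined Fos in the same way. Fos and Npas4 gave r = 0.86 and rho = 0.88 (permutation p = 1e-05 for each), with 0.89 in MUT and 0.85 in WT mice, 0.85 and 0.89 in the lower and higher array numbers, and 0.83 without the 2 farthest mice. Fos and Dusp1 gave r = 0.86 and rho = 0.85 (permutation p = 1e-05 for each), with 0.85 in MUT and 0.93 in WT mice, 0.91 and 0.84 in the lower and higher array numbers, and 0.85 without the 2 farthest mice. Npas4 and Dusp1 were as close to each other, at r = 0.91 and rho = 0.89 (permutation p = 1e-05 for each), with 0.90 in MUT and 0.93 in WT mice, 0.89 and 0.85 in the lower and higher array numbers, and 0.91 without the 2 mice farthest out in Npas4. All 10 pairs among Fos, Junb, Npas4, Nr4a1 and Dusp1 lay between 0.80 and 0.95, with a median of 0.88, and the median was 0.89 without MUT replicate 1.

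Egr2 and Arc formed a second close pair, at r = 0.90 (permutation p = 1e-05) and rho = 0.75 (permutation p = 0.00012). It was 0.91 in MUT and 0.89 in WT mice, 0.93 in array numbers 1 to 12 and 0.78 in 13 to 24, and 0.74 without the 2 farthest mice. The 6 pairs among Fosb, Egr1, Egr2 and Arc had a median of 0.70, and 0.49 without MUT replicate 1. The 20 pairs between these 4 genes and the 5 around Fos had a median of 0.47, from -0.09 to 0.77, and 0.31 without MUT replicate 1. The division into 5 and 4 genes was made after the correlations were seen and is a description only. Egr1 went least with the genes around Fos. Fos and Egr1 gave r = 0.31 (permutation p = 0.175) and rho = 0.02 (permutation p = 0.917), with 0.50 in MUT and -0.12 in WT mice, and 0.68 and 0.08 in the lower and higher array numbers. Without the 2 mice farthest out in Fos that r was -0.07.

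Over all 24 mice Ier2 went with none of the others. Its 9 pairs had a median r of -0.05 and lay between -0.14 and 0.14, and 0 of them reached a permutation p under 0.05. Among WT mice they lay between -0.64 and 0.20, and in array numbers 13 to 24 between -0.50 and -0.05. In each of these sets of mice 1 of the 9 reached a permutation p under 0.05. Over all 45 pairs the median r was 0.68 (0.76 among MUT and 0.38 among WT mice), and 0.43 without MUT replicate 1. It was 0.79 in array numbers 1 to 12 and 0.56 in array numbers 13 to 24. No other left-out mouse moved it outside 0.66 to 0.69.

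**Figure D2:**
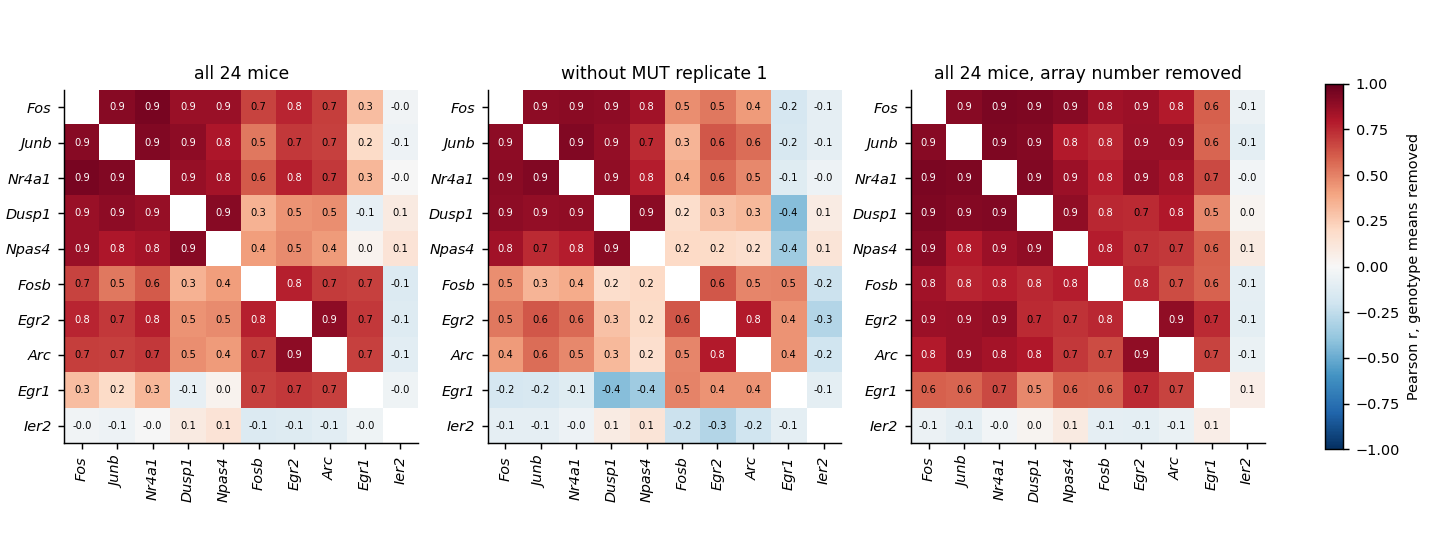
Pearson r between each pair of genes with genotype means removed, over all 24 mice (left), without MUT replicate 1 (middle) and over all 24 mice with a linear trend on array number removed as well (right). The block from Fos to Npas4 stays between 0.75 and 0.95 in all 3 panels, and the 6 pairs among Fosb, Egr1, Egr2 and Arc have a median of 0.49 in the middle panel, against 0.70 in the left. Egr1 against Npas4 and Dusp1 is at -0.36 and -0.43 in the middle panel, against 0.04 and -0.09 in the left.

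A fit over all genes with genotype and the Fos level as terms put these relations on the scale of the whole array. Of the other 9 genes, 7 rose with Fos, against 0.441% of the 18819 genes tested, and none fell, against 0.159%. In either direction 0.6% of all genes were called. The slope, in log2 of the gene per log2 of Fos, was 0.66 ± 0.05 (SE) for Nr4a1 (limma, adjusted p = 2.92e-08), 0.63 ± 0.06 for Junb (limma, adjusted p = 3.06e-06), 0.86 ± 0.10 for Npas4 and 0.66 ± 0.08 for Dusp1 (limma, adjusted p = 9.27e-05 for both). Egr2 had a slope of 0.69 ± 0.12 (limma, adjusted p = 0.00909), Arc one of 0.45 ± 0.10 (limma, adjusted p = 0.0438) and Fosb one of 0.36 ± 0.08 (limma, adjusted p = 0.0471). Egr1, at 0.13 ± 0.09 (limma, adjusted p = 0.569), and Ier2, at -0.01 ± 0.09 (limma, adjusted p = 0.968), did not pass. The calls of Arc and Fosb, close to the threshold, were lost with arrays centred on their medians and with array weights. That of Fosb was lost after quantile normalization as well. The count was 4 without MUT replicate 1, namely Junb, Npas4, Nr4a1 and Dusp1. The slope of Egr2 was then 0.37 (limma, adjusted p = 0.165), that of Arc 0.27 (limma, adjusted p = 0.296), that of Fosb 0.26 (limma, adjusted p = 0.245) and that of Egr1 -0.08 (limma, adjusted p = 0.771).

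**Figure D3:**
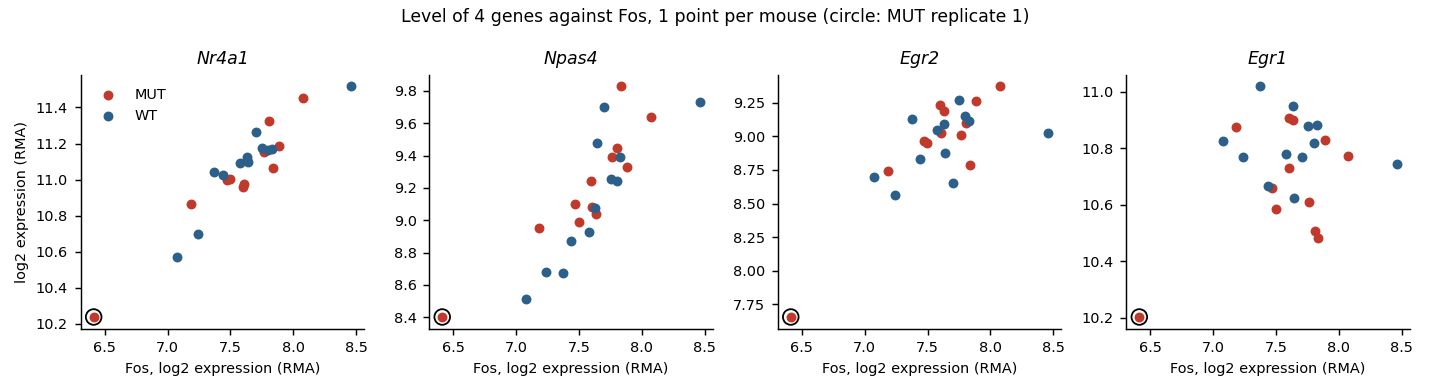
Log2 level of Nr4a1, Npas4, Egr2 and Egr1 (vertical axes) against that of Fos (horizontal axes) in 12 MUT (red) and 12 WT (blue) mice. Nr4a1 and Npas4 follow Fos in both genotypes, Egr2 has r = 0.91 among MUT mice, with MUT replicate 1 (circle) far below the others, and 0.47 among WT mice, and Egr1 shows no trend (r = -0.17) among the other 23 mice.

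With another gene in the place of Fos, 5 of 9 rose with Junb, against 0.181% of genes tested, 6 with Nr4a1 (0.276%) and 6 with Egr2 (0.159%). The count was 4 with Npas4 (0.0956%), 4 with Dusp1 (0.425%) and 4 with Fosb (0.723%), 3 with Egr1 (0.606%) and 1 with Arc (0.101%). That gene was Egr2, with a slope on Arc of 1.24 ± 0.13 (SE; limma, adjusted p = 1.63e-05). The genes that rose with Egr1 were Fosb, Egr2 and Arc. With Ier2 the count was 0, where limma called 0% of all genes upward and gave 0 of the 9 an unadjusted p under 0.05, and permutation gave 0 of its 9 pairs under 0.05. Without MUT replicate 1 the count was 0 with Fosb (0.0319% of genes tested) and with Egr1 (0.271%), and 1 with Egr2 and with Arc (0.0106% each). It was 4 with Junb (0.324%), Npas4 (0.356%), Nr4a1 (0.319%) and Dusp1 (0.813%).

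The running array number went with several of the levels, in a fit chosen after the data had been seen. Egr1 rose with it by 0.0166 ± 0.0035 (SE) on the log2 scale per array number (limma with genotype and array number, adjusted p = 0.0111), and 1.84% of all genes were called in that fit. Its r with the array number was 0.71 and its rho 0.72 (permutation p = 7e-05 and 0.00015), among 10 genes so compared. The correlation was 0.87 in MUT and 0.55 in WT mice, but 0.89 in array numbers 1 to 12 and 0.23 in 13 to 24. Without the mice at both ends of the numbering it was 0.67. Npas4 and Dusp1 went the other way without passing, at -0.0253 and -0.0219 per array number (limma, adjusted p = 0.231 and 0.142). Their r with the array number was -0.47 and -0.52 (permutation p = 0.0251 and 0.0103), with rho of -0.51 and -0.55 (permutation p = 0.0157 and 0.00681). In Npas4 that r was -0.06 in MUT and -0.82 in WT mice, and in Dusp1 -0.16 in MUT and -0.79 in WT mice. Within array numbers 1 to 12 and 13 to 24 it was 0.15 and -0.46 in Npas4, and 0.19 and -0.57 in Dusp1.

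Array number 1 is MUT replicate 1, and the trends of Npas4 and Dusp1 depended on that mouse. With it left out both fell with array number, at -0.0379 for Npas4 (limma, adjusted p = 0.00595) and -0.0304 for Dusp1 (limma, adjusted p = 0.00822), and 1.28% of all genes were called. Egr1 then rose by 0.0132 (limma, adjusted p = 0.0323). In Fos, Junb and Nr4a1 the r with array number was -0.15, -0.28 and -0.18 over all 24 mice, and -0.52, -0.54 and -0.55 without that mouse. None of these 3 genes passed in the fit without it (limma, adjusted p = 0.188, 0.164 and 0.151). Within genotypes the r of Fos was 0.25 in MUT and -0.61 in WT mice, that of Junb 0.12 in MUT and -0.61 in WT mice, and that of Nr4a1 0.23 in MUT and -0.64 in WT mice. Fosb had r = 0.44 (permutation p = 0.0325), or 0.32 without MUT replicate 1, and did not pass in the fit (limma, adjusted p = 0.289), with or without MUT replicate 1 (limma, adjusted p = 0.577 without it). Egr2, Arc and Ier2 had r of 0.30, 0.34 and -0.13, and 0.04, 0.15 and -0.16 without that mouse. The labels put 7 MUT mice in array numbers 1 to 12 and 5 in 13 to 24, so both genotypes were spread along the numbering.

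**Figure D4:**
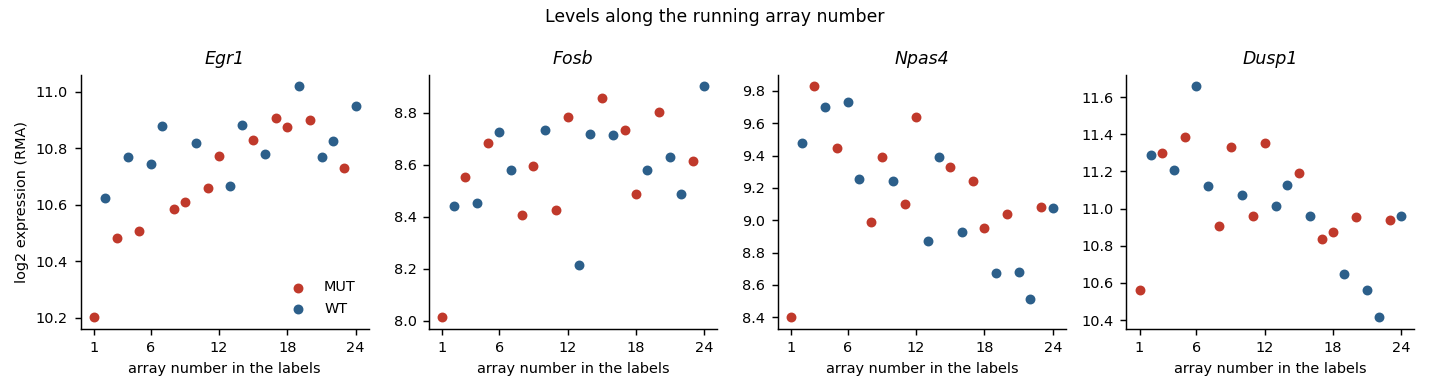
Log2 level of Egr1, Fosb, Npas4 and Dusp1 (vertical axes) against the running array number in the labels (horizontal axes) in 12 MUT (red) and 12 WT (blue) mice. Egr1 is higher at the higher array numbers (r = 0.71), while Npas4 (r = -0.47) and Dusp1 (r = -0.52) are lower there apart from MUT replicate 1 at array number 1.

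With the array number as a term beside Fos, 7 of 9 genes again rose with Fos, against 0.786% of genes tested. The 7 were those called without the term, with adjusted p between 1.05e-07 for Nr4a1 and 0.00357 for Arc (limma). Egr1 had a slope of 0.18 ± 0.05 (SE; limma, adjusted p = 0.112). With the array number removed from the levels, the 20 pairs between the genes around Fos and Fosb, Egr1, Egr2 and Arc had a median r of 0.77, from 0.48 to 0.88. That median was 0.64 without MUT replicate 1. Fos and Egr1 then correlated at 0.60, and at 0.29 without MUT replicate 1. What the array number stands for was not tested.

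Of 54 measured fast-response genes other than the 10 described, 7 rose with Fos, against 0.441% of genes tested, and 0 fell, against 0.159%. The median slope was 0.14, against a median slope of 0.01 over all genes. The 7 included Trib1, a pseudokinase, at 0.43 ± 0.06 (SE; limma, adjusted p = 0.00155) and Sik1, a salt-inducible kinase, at 0.37 ± 0.06 (SE; limma, adjusted p = 0.00775). Csrnp1, a nuclear protein, had 0.28 (limma, adjusted p = 0.00909), and Ccn1, a secreted matrix protein, had 0.82 (limma, adjusted p = 0.0170). Dusp6, a phosphatase of ERK, had 0.34 (limma, adjusted p = 0.0234). Nr4a3, a close relative of Nr4a1, had 0.60 (limma, adjusted p = 0.04998), and Gadd45g, a stress-response gene named here because it completes the 7, had 0.39 with the same adjusted p. With the array number as a term 12 rose, against 0.786% of genes tested. The count was 3 without MUT replicate 1 (Btg2, Gadd45g and Ccn1), against 0.324% of genes tested.

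Of 38 later activity-regulated effectors, 2 rose with Fos (0.441% of genes tested did) and 0 fell (0.159% did), with a median slope of 0.02. They were Ptgs2, the inducible cyclooxygenase, at 0.36 ± 0.07 (SE; limma, adjusted p = 0.0234) and Plk3, a polo-like kinase, at 0.29 ± 0.07 (SE; limma, adjusted p = 0.04998). Of 32 measured genes upstream of the response, 1 fell with Fos, against 0.159% of genes tested, with a median slope of -0.04. The mean of these 32 genes correlated with the mean of the 10 genes at -0.72, and at -0.71 without MUT replicate 1, and 11 of the 32 had an r above 0. The upstream gene that fell was Camk2a, the alpha subunit of the calcium-dependent kinase CaMKII, at -0.11 ± 0.03 (SE; limma, adjusted p = 0.0447). The call of Camk2a was lost without MUT replicate 1 (limma, adjusted p = 0.0606), as were those of Ptgs2 (limma, adjusted p = 0.155) and Plk3 (limma, adjusted p = 0.470), and Nptx2, a synaptic pentraxin, was called (limma, adjusted p = 0.0487). Of 18 glucocorticoid-induced and 14 heat-shock genes 0 passed in limma, where 0.6% of all genes did in either direction. At that share a 0 in lists of this size says little. An unadjusted p under 0.05 was reached in limma by Lcn2 and Xdh of the glucocorticoid-induced genes and by none of the heat-shock genes. Of all genes 12.3% reached it. The mean of the glucocorticoid-induced genes correlated with the mean of the 10 genes at -0.04, and at -0.40 without MUT replicate 1. For the heat-shock genes these values were 0.002 and -0.13. Xdh, a glucocorticoid-induced gene, fell with Fos once MUT replicate 1 was left out (limma, adjusted p = 0.0497). Btg2, Gadd45g and Xdh were named after their values had been seen.

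The genes whose levels were most like the mean of the 10 genes, taken as standardised levels with genotype means removed over 24 mice, were led by Trib1 (r = 0.90), Pcsk5 (0.86), Grp (0.86), Dusp6 (0.84) and Crym (0.81). Sik1 and Lratd2 (0.80 each), Nab2 (0.79), Nr4a3 and Sh3rf1 (0.78 each) followed. Pcsk5 is a proprotein convertase, Grp a neuropeptide, Crym a thyroid hormone-binding protein and Nab2 a corepressor that binds the Egr proteins. Most opposed were Axl (-0.83), Aldoc (-0.82), Prkca (-0.80), Frzb (-0.79) and Dpep2 (-0.77). Axl is a receptor tyrosine kinase and Aldoc an aldolase of astrocytes. These correlations are a description, since the genes were ranked by them and all points share the same arrays. Without MUT replicate 1 they were between 0.54 (Nr4a3) and 0.81 (Trib1) among those most alike, and between -0.78 (Aldoc) and -0.72 (Dpep2) among those most opposed.

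Levels of cortical layer markers were set beside those of the 10 genes, as a description with no test of the list means. The mean of 6 deep-layer markers (Fezf2, Bcl11b, Tle4, Foxp2, Ccn2 and Ntsr1) correlated with the mean of the 10 genes at 0.71, and 6 of 6 had an r above 0. The mean of 6 upper-layer markers (Cux1, Cux2, Rorb, Lamp5, Rasgrf2 and Calb1) correlated at -0.73, and 0 of 6 had an r above 0. Without MUT replicate 1 the values were 0.55 and -0.53. MUT replicate 1 had the lowest deep-layer mean of all 24 mice, 8.31, with the next at 8.51, and the highest upper-layer mean, 10.81, with the next at 10.68. The deep-layer mean ranged from 8.31 to 8.99 in MUT and from 8.51 to 8.83 in WT mice, and the upper-layer mean from 10.44 to 10.81 in MUT and from 10.48 to 10.64 in WT mice. In the fit on Fos, 2 of the 6 deep-layer markers rose, against 0.441% of genes tested. They were Fezf2 at 0.35 ± 0.08 (limma slope ± SE, adjusted p = 0.0441) and Ccn2 at 0.40 ± 0.09 (limma slope ± SE, adjusted p = 0.04998). With array number as a term 3 of the 6 deep-layer markers rose (Fezf2, Foxp2 and Ccn2), against 0.786% of genes tested. In that fit 2 of the 6 upper-layer markers fell (Cux1 and Rasgrf2), where 1.16% of genes tested were called in either direction. None of the 12 layer markers passed in limma without MUT replicate 1, where 0.558% of all genes did in either direction. The part of tissue composition in the covariation was not tested.

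Other marker lists gave smaller or mixed values. The mean of 6 neuron markers correlated with the mean of the 10 genes at -0.59, that of 7 astrocyte markers at -0.52 and that of 6 endothelial markers at -0.46. These were -0.58, -0.44 and -0.23 without MUT replicate 1. MUT replicate 1 had the highest endothelial mean of all mice, 8.87. The 6 endothelial markers ranged in their mean from 8.51 to 8.87 in MUT and from 8.63 to 8.78 in WT mice, and 0 of 6 had an r above 0. For the astrocyte list the ranges were 10.88 to 11.10 in MUT and 10.92 to 11.11 in WT mice, with 0 of 7 above 0, and for the neuron list 1 of 6 was above 0. Striatal markers, of a region that borders the dissected tissue, correlated at 0.47 with 4 of 6 above 0. Without MUT replicate 1 that correlation was 0.50. The mean of the striatal markers lay between 8.18 and 8.37 in MUT and between 8.13 and 8.28 in WT mice. Of these markers Rgs9 rose with Fos at 0.25 ± 0.05 (SE; limma, adjusted p = 0.0234), a call lost without MUT replicate 1 (limma, adjusted p = 0.0737). Ppp1r1b and Penk of the same list went the other way, with r of -0.66 and -0.52 to the mean of the 10 genes. The lists for interneurons (-0.27), oligodendrocytes (-0.01), their precursors (0.06), microglia (-0.13), mural cells and fibroblasts (-0.31), blood (-0.39) and olfactory bulb (-0.35) had no gene that passed. Without MUT replicate 1 these values were, in the same order, -0.31, 0.10, 0.15, -0.02, -0.49, -0.53 and -0.38. The part of these lists in the result was not tested.

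Between genotypes 0 of the 10 genes passed in limma, where 0.76% of the 18820 genes did, and 1 had an unadjusted p under 0.05, as did 11.9% of all genes. That 1 of 10 is near this share. The gene was Egr1, which averaged 10.67 ± 0.21 in MUT and 10.81 ± 0.11 in WT mice (SD, n = 12 each). The difference was -0.14 on the log2 scale with a 95% interval from -0.27 to -0.004 (limma, p = 0.0441, adjusted p = 0.404; permutation p = 0.0498, not adjusted). Without MUT replicate 1 it was -0.10 (limma, adjusted p = 0.497), and with array number as a term -0.12 (limma, adjusted p = 0.315). The median difference over the 10 genes was -0.03, against -0.001 over all genes, and 0.04 without MUT replicate 1. Of the 10 genes, 3 were higher and 7 lower in MUT mice.

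Fos averaged 7.56 ± 0.43 in MUT and 7.63 ± 0.35 in WT mice, a difference of -0.06 with a 95% interval from -0.37 to 0.25, or 0.77-fold to 1.19-fold (limma, adjusted p = 0.907). Npas4 averaged 9.20 ± 0.37 in MUT and 9.13 ± 0.41 in WT mice, a difference of 0.08 from -0.23 to 0.38 (limma, adjusted p = 0.883). Arc averaged 10.63 ± 0.30 in MUT and 10.67 ± 0.20 in WT mice, a difference of -0.04 from -0.24 to 0.16 (limma, adjusted p = 0.913). In these 3 genes the difference was smaller than the SD of either genotype. The intervals leave room for a change of about that SD.

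Egr2 averaged 8.94 ± 0.45 in MUT and 8.95 ± 0.23 in WT mice (difference -0.01, from -0.29 to 0.27). Fosb averaged 8.58 ± 0.23 in MUT and 8.60 ± 0.18 in WT mice (-0.02, from -0.19 to 0.15). Nr4a1 averaged 11.03 ± 0.30 in MUT and 11.08 ± 0.25 in WT mice (-0.05, from -0.27 to 0.17). For Ier2 the means were 5.91 ± 0.18 in MUT and 5.99 ± 0.14 in WT mice (-0.07, from -0.21 to 0.06). Junb averaged 8.55 ± 0.26 in MUT and 8.52 ± 0.29 in WT mice (0.03, from -0.19 to 0.24). For Dusp1 they were 11.05 ± 0.26 in MUT and 11.003 ± 0.34 in WT mice (0.05, from -0.19 to 0.29). The adjusted p of these 6 genes lay between 0.688 for Ier2 and 0.984 for Egr2 (limma). The signs were not stable. With MUT replicate 1 left out the differences of Egr2, Fosb and Nr4a1 were above 0, at 0.10, 0.03 and 0.02, as were those of Fos, at 0.04, and Arc, at 0.03. That of Ier2 stayed below 0 under each alternative run.

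**Figure D5:**
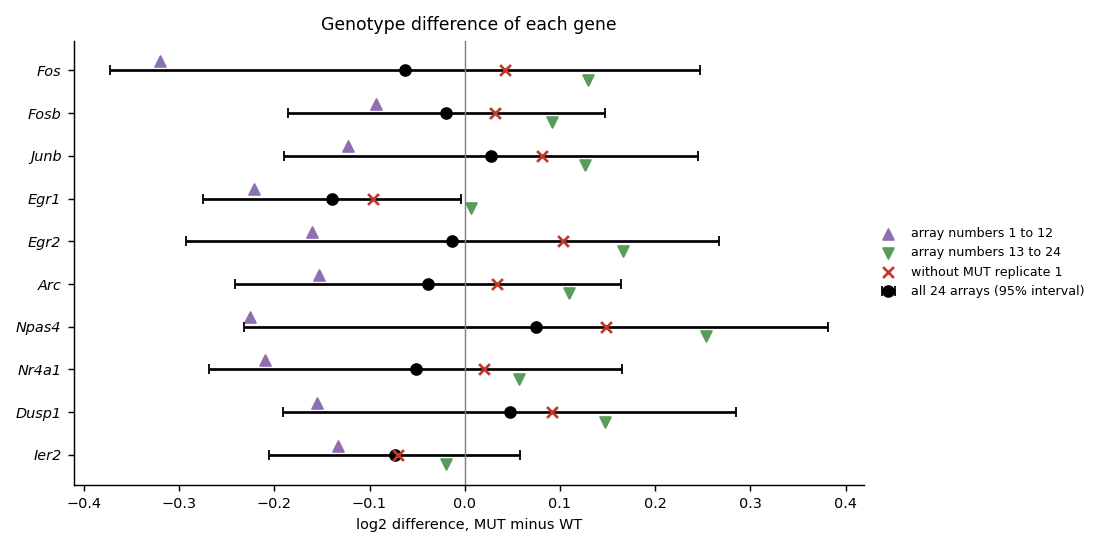
Log2 difference of MUT minus WT for each gene (horizontal axis) over all 24 arrays with its 95% interval (black), within array numbers 1 to 12 and 13 to 24 (triangles) and without MUT replicate 1 (crosses). Of the 10 intervals, 9 include 0, and all 10 differences lie further to the right within the higher array numbers than within the lower ones. The lower ones include MUT replicate 1, and the genes moved together, so these are not 10 separate observations.

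The genotype difference was below 0 in all 10 genes within array numbers 1 to 12, from -0.32 for Fos to -0.09 for Fosb. Within array numbers 13 to 24 it was above 0 in 9 genes, from 0.006 for Egr1 to 0.25 for Npas4, with Ier2 at -0.02. MUT replicate 1, the lowest of all mice in 7 of the genes, lies in array numbers 1 to 12. Differences within that set without it were not computed. The genes moved together there, with a median r of 0.79 over 45 pairs, so equal signs are not 10 separate observations. The test of the change between these sets of array numbers called 0 of the 10 genes, with adjusted p from 0.813 to 0.914 (limma with an interaction term). It called 0% of all genes, where 1105 had an unadjusted p under 0.05. Egr1 alone among the 10 genes did, with a change of 0.23 (limma, p = 0.0393, adjusted p = 0.813).

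Whether the slope on Fos differed between MUT and WT mice was tested across all genes, and limma called 0 of 9 genes and 0% of all genes, where 8.36% had an unadjusted p under 0.05. Of the 9, 2 did. Egr2 had a slope greater in MUT mice by 0.64 ± 0.21 (SE; limma, p = 0.00597, adjusted p = 0.426), with r to Fos of 0.91 in MUT and 0.47 in WT mice. Without MUT replicate 1 that difference was 0.22 ± 0.28 (SE; limma, p = 0.438, adjusted p = 0.947), and the r among the other 11 MUT mice was 0.64. Dusp1 had a slope smaller in MUT mice, a difference of -0.38 ± 0.15 (SE; limma, p = 0.0162, adjusted p = 0.514), with r of 0.85 in MUT and 0.93 in WT mice. With that mouse left out it was -0.17 ± 0.20 (SE; limma, p = 0.414, adjusted p = 0.941). In that setting limma called 0 of the 9 genes and 0% of all genes, and 0 of the 9 had an unadjusted p under 0.05, against 5.91% of all genes. The spread between mice was also compared by genotype, and limma called 0 of 10 genes and 0% of all genes, with 739 of all genes and 0 of the 10 at an unadjusted p under 0.05. On simulated data this step called none of the genes whose SD was changed 4-fold, so the count of 0 says nothing about equal spread.

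Between genotypes 0 genes of the 54 other fast-response genes, the 38 later effectors, the 32 upstream genes, the 18 glucocorticoid-induced genes and the 14 heat-shock genes passed in limma. Unadjusted p under 0.05 was reached by 7, 5, 2, 1 and 3 of them, against 11.9% of all genes, so the first 2 lists were near that share. The smallest in each list were those of Ier3, a fast-response gene (0.17 ± 0.05, SE; limma, adjusted p = 0.124), Penk, the enkephalin precursor (-0.14 ± 0.05, SE; limma, adjusted p = 0.257), and Adcy1, a calcium-stimulated adenylyl cyclase (0.06 ± 0.02, SE; limma, adjusted p = 0.290). Lcn2, a secreted lipocalin, had -0.82 ± 0.39 (SE; limma, adjusted p = 0.410), and Hspe1, a mitochondrial chaperonin, had -0.12 ± 0.04 (SE; limma, adjusted p = 0.148). Jun, which encodes the partner of Fos in AP-1, had 0.16 ± 0.05 (SE; limma, adjusted p = 0.179). The median differences of these 5 lists lay between -0.04 and 0.01. Permutation tests of the 10 genes described gave p under 0.05 for Egr1 and from 0.287 to 0.945 for the other 9.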

How the data were processed

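Labelled cDNA from 100 ng of total RNA per mouse was hybridised to an Affymetrix array, per the labels' protocols. The deposited values are log2 expression made by the authors with RMA, per the submitters' processing notes; its version, its settings and any genome build were not given in the sources used here. Of 35556 probe sets, 21218 had 1 gene symbol, 1881 several and 12457 none, and the brightest single-symbol probe set stood for each of 18820 genes. The number of arrays, 12 in each genotype, limits the precision. Arrays were taken as 1 per mouse, though nothing beyond the word replicate says that they are separate animals, so p-values measure the spread between these arrays.

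Levels were compared with limma 3.58.1 (lmFit, eBayes) in R 4.3.3, with genotype, or genotype and the Fos level, as terms, and Benjamini-Hochberg adjustment over all genes at a threshold of 0.05. Correlations and single differences used two-sided permutation tests with 100000 resamples (Python 3.11.15, scipy 1.17.1). The genes, lists, tests and naming rules were chosen with earlier results of these data known. List genes were named by p, up to 6 for covariation with Fos and up to 3 for genotype, and the 10 most alike and 5 most opposed genes by r. Of the listed genes, 54 of 58 fast-response, 38 of 39 later, 32 of 44 upstream and 14 of 17 heat-shock genes were measured. Same-numbered MUT and WT arrays correlated at -0.08 to 0.31 (median 0.10), and differently numbered ones at -0.29 to 0.35 (median -0.01). The labels do not say that the numbers mark litters, so they were not taken as pairs, though these values do not exclude it. With a replicate block the genotype difference of Egr1 was -0.14 (limma, p = 0.00921, adjusted p = 0.215).

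On simulated data the genotype step on 18820 genes recovered 54% of 100 changes of 0.2 and 94% of 100 changes of 0.4. These rates were not split by the SD of a gene. Most of the genes described varied more than other genes did. Their SD within genotypes was, for example, 0.26 in Arc and 0.39 in Fos, at percentiles 96.8 and 99.7 of all genes. The rates therefore cannot be taken as those for genes that vary this much. The Fos step on 18819 genes recovered 36% of 100 correlations of 0.6 and 90% of 100 of 0.8, and the slope-difference step on 18819 genes 5% of 100 differences of 1 SD per SD and 53% of 100 of 2. Alternatives covered normalization, dim genes, array number, array weights, a replicate block and left-out arrays.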

Additional observations from a re-analysis of the deposited data

How the results depend on the processing

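Between genotypes, none of the 10 genes passed in limma under any alternative run (other normalizations, filters on dim genes, array number, array weights, a trend, a residual component, a replicate block and each mouse left out), and the signs of small differences were not stable. For Egr2 the difference was 0.0020 after quantile normalization, 0.000553 with centred arrays, 0.00857 with array weights, 0.00244 with a term for array numbers 1 to 12 and 13 to 24, and 0.00615 with array number as a term. For Dusp1 it was -0.00397 with that same term for sets of array numbers. Within array numbers 1 to 12 it was -0.12 for Junb, -0.23 for Npas4 and -0.15 for Dusp1. Within array numbers 13 to 24 it was 0.13 for Fos, 0.092 for Fosb, 0.00606 for Egr1, 0.17 for Egr2, 0.11 for Arc and 0.0573 for Nr4a1. With each mouse left out in turn it ranged from -0.113 to 0.0422 for Fos, -0.0544 to 0.032 for Fosb, -0.0297 to 0.0811 for Junb, -0.0526 to 0.104 for Egr2, -0.0771 to 0.034 for Arc, -0.0976 to 0.0204 for Nr4a1 and -0.00619 to 0.107 for Dusp1. The count of genes rising with Fos, 7 of 9, was 4 in array numbers 1 to 12 (0.101% of all genes rising), 4 without the 2 mice farthest out in Fos (0.0372%) and 4 to 7 with each mouse left out. After quantile normalization (0.202%) and without MUT replicates 5, 9 and 10 (0.308%) it was 6, as Fosb did not pass. With centred arrays (0.149%) and with array weights (0.308%) it was 5, as Fosb and Arc did not pass. It was 0 in array numbers 13 to 24 and 0 with ranks within genotype, where limma called none of 18819 genes, so these zeros say nothing about the 10 genes. The r with Fos in array numbers 13 to 24 was 0.92 for Junb, 0.89 for Npas4, 0.88 for Nr4a1 and 0.84 for Dusp1. With another gene as anchor it was 4 for Fosb, 3 for Egr1, 1 for Arc, 4 for Npas4, 4 for Dusp1 and 0 for Ier2. The slope of Egr1 on Fos was -0.0744 without the 2 farthest mice and ranged from -0.0759 to 0.193 with each mouse left out. That of Ier2 was 0.017 without MUT replicates 5, 9 and 10, 0.0265 in array numbers 1 to 12 and 0.00363 with a residual component, and ranged from -0.0532 to 0.0195. With a replicate block, which shares only a number between genotypes and leaves fewer degrees of freedom, 3 genes rose with Fos (Junb, Npas4 and Dusp1), against 0.0319% of all genes, the slope of Ier2 was 0.26, and 1 of the 54 other fast-response genes rose. That count of 7 fast-response genes was 12 with array number as a term and 3 without MUT replicate 1. The count of genes following array number, 1, was 1 to 3 with each mouse left out, and the median r of the 45 pairs, 0.677, was 0.375 in WT mice and 0.429 to 0.694 with each mouse left out. Where a cause is not named, the cause was not tested. The dim probe set of Ier2 limits what its values can show.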
